A study of Mus musculus with 2 samples.

Results

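The nuclear-encoded respiratory chain genes are described here in single cells of mouse ear skin. They are all 88 genes whose names begin with Nduf, Uqcr, Cox4 to Cox8 or Atp5, of 27998 genes in the count matrices, by a rule that uses names and no measured value. The cells came from 7 to 8 week old male ICR mice, an outbred strain. The control library was prepared from healthy ear skin. The allergic contact dermatitis (ACD) library was prepared from ears of mice that had received 1.0% 2,4-dinitrofluorobenzene (DNFB), a contact allergen, on the back and 0.2% DNFB on the ears 6 days later, and the ears were taken 60 hours after this elicitation. Both samples were dissociated with collagenase D and DNase and cleared of dead cells. Each group is 1 library and the number of mice pooled in it is not given in the sources used here, so no difference below has a replicate check and none was tested. All intervals are exact 95% intervals that cover counting error only, and mouse, dissociation and library cannot be told apart from treatment.

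The respiratory chain sits in the inner mitochondrial membrane. Complex I takes electrons from NADH, complex III passes them to cytochrome c, complex IV hands them to oxygen, and complex V uses the proton gradient that results to make ATP. Nuclear genes encode most of the subunits and the mitochondrial genome encodes a small core, so that both sets of transcripts are needed to build complexes I, III, IV and V. Several complex IV subunits exist as paralogs that are used in different tissues, and Cox4i2 and Ndufa4l2 are known as the paralogs of cells adapted to low oxygen.

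Barcodes were kept that held over 200 but under 5000 genes, no more than 25000 unique molecular identifiers (UMIs) and less than 8% mitochondrial UMIs. The control library kept 12213 of 12895 barcodes and the ACD library 11665 of 13163. The median depth was 6850 UMIs per control cell and 7447 per ACD cell, and 47 barcodes occurred in both libraries. Cells were gated into 22 classes by marker genes, and 21.4% of control and 20.6% of ACD cells stayed ungated. Among the 10 leading genes of each gated class, 2 or more were its own markers. The classes were gated on these markers, so this count is no check of the gate. Of the 19 classes with at least 10 cells in both libraries, all 19 had a higher median depth in ACD. Ratios within broad ranges of depth are given below for some of these classes. The others are given without such values, so their differences also hold the difference in depth.

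The module is carried by many genes of similar weight. The 5 members with the most UMIs held 20.3% of the module's UMIs and the 10 highest 32.9%. By role, the 7 core subunits of complex I held 4.03%, its 29 accessory subunits 26.6%, its 7 Nduf-named assembly factors 0.633%, the 8 complex III genes 10%, the 19 complex IV genes 28.9% and the 15 complex V genes 28.7%. Ndufa4 is counted with complex IV, where its protein is now placed, and Ndufa4l2, Atp5s and Atp5sl are kept apart. Of the 88 members, 86 reached 100 UMIs over all kept cells, and the others were Cox7b2 and Cox8c, which are known from testis.

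The 5 members with the most UMIs lie on 5 chromosomes of GRCm38. Cox4i1 (chromosome 8, 120668222 to 120674207), the common isoform of complex IV subunit 4, had 98253 UMIs in control and 106559 in ACD. Cox8a (chromosome 19, 7215153 to 7217616), the common isoform of complex IV subunit 8, had 52233 and 70792. Uqcrh (chromosome 4, 116066965 to 116075071), the hinge subunit of complex III, had 45608 and 60937. Atp5g2 (chromosome 15, 102662864 to 102672352), which encodes the c subunit of the membrane rotor of complex V, had 39741 and 54984, and Atp5l (chromosome 9, 44912557 to 44920742), subunit g of complex V, had 39160 and 48463. Most cells showed these transcripts, with a UMI of Cox4i1 in 98.3% of control and 96.9% of ACD cells and a UMI of Atp5l in 89.5% and 90.4%.

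Promoters are shown because NRF1, a factor named for its sites in respiratory chain genes, has a core motif that was more common in the members' windows than in others. RefSeq promoter windows of 300 bases (GRCm38.p6) were found for 70 of the 88 members, in 75 windows. The NRF1 core CGCATGCG, which reads the same on both strands, stood in 11 of them, or 14.7%, against 1.87% of all 32851 windows and 3.48% of the windows of genes with at least 100 UMIs. The YY1 core AAGATGGC, on either strand, stood in 12.0% against 2.75% and 3.99%. The ETS core CCGGAAG, on either strand, stood in 20% against 8.86% and 15.7%, and CAAGGTCA, a core of estrogen-related receptor sites, in 4% against 1.56% and 1.09%. No core contains another, and a match describes the window and says nothing of binding. The median GC content was 57.3% in member windows, 52.7% in all and 60.3% in those of genes with at least 100 UMIs. Members on chromosomes 8 and 18 were left out of the choice of windows to print. Among the rest with an NRF1 core upstream of the start, the 4 members with the most UMIs were taken. Their windows are printed 5′ to 3′ on the gene's strand, here minus for each, with the core in capitals. They are chr15:102671055-102671114 for Atp5g2, chr9:44920933-44920992 for Atp5l, chr16:84835090-84835149 for Atp5j, a stalk subunit of complex V, and chr5:115349086-115349145 for Cox6a1, the common isoform of complex IV subunit 6A. The Atp5g2 and Atp5j windows lie within the GENCODE spans of their genes, whose starts are upstream of the RefSeq starts used here.
Atp5g2: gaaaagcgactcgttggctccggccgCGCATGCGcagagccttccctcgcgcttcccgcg
Atp5l: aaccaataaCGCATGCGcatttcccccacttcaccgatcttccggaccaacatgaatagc
Atp5j: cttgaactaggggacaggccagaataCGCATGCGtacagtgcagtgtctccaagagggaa
Cox6a1: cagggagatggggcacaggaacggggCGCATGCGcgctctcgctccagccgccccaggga

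Levels of the whole module differed between classes more than between the libraries. A level is the sum of a gene's or list's UMIs in a class per 1000000 UMIs of that class. Because each transcript is counted once near its 3′ end, levels of different genes are compared without a correction for length. In control skin, vascular smooth muscle cells had the highest level among the 19 classes with at least 10 cells in both libraries, 25365 (25128 to 25605), and keratinocytes followed with 24891 (24683 to 25100). Cartilage cells were lowest with 13203 (13153 to 13252), next to fibroblasts with 13644 (13609 to 13680). The highest class stood 1.92-fold above the lowest in control and 2.42-fold above it in ACD. With mitochondrial and ribosomal protein genes left out of the total, keratinocytes led in control, with 37569, and the control span was 2.34-fold.

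In ACD the ends of this order were held by the same classes. Vascular smooth muscle had 32193, keratinocytes 26122, mast cells 25085 and CD8 T cells 22721, while fibroblasts had 15438 and cartilage 13297. Some neighbours in the middle of the order did not differ beyond counting error, as CD4 T cells with 20410 (20277 to 20544) and melanocytes with 20417 (20170 to 20666). Others did, as pericytes with 21179 (20862 to 21501) above melanocytes. Lymphocytes lay between the extremes, with 21255 in dermal gamma delta T cells, 20048 in regulatory T cells (Treg), 17671 in dendritic epidermal T cells (DETC) and 16664 in NK/ILC1 cells. The lowest levels of ACD skin were those of short-lived granulocytes, with 9763 in 234 basophils and 7898 in 63 neutrophils. The control library held 6 basophils and 3 neutrophils, whose levels were 8132 (6883 to 9542) and 4683 (3112 to 6768).

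**Figure D1:**
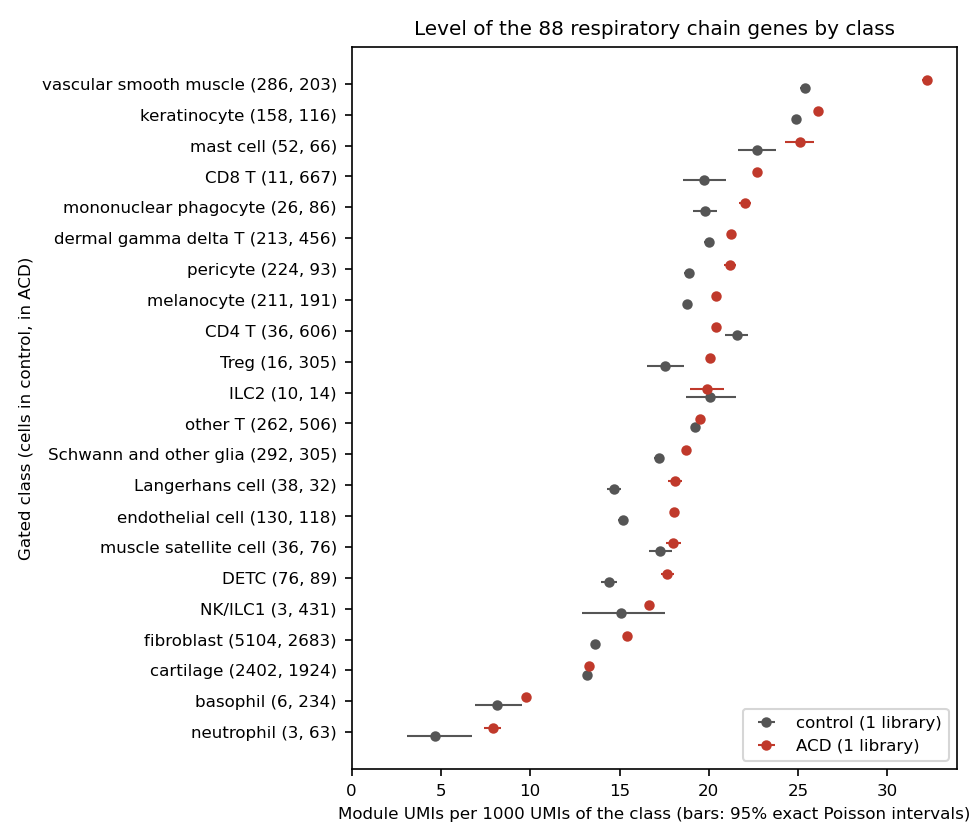
Level of the 88 genes, in UMIs per 1000 UMIs, in each gated class of the control (grey) and ACD (red) library, with exact 95% Poisson intervals and cell numbers in brackets. Vascular smooth muscle and keratinocytes lie at the top, cartilage, basophils and neutrophils at the bottom, and 20 of the 22 classes have the ACD point to the right of the control point.

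Within the classes below, single cells spread more than the libraries differed. In fibroblasts the module's share of a cell's UMIs had quartiles of 1.17% and 1.55% around a median of 1.34% in control, and of 1.30% and 1.76% around 1.51% in ACD. In cartilage cells the quartiles were 1.12% and 1.504% in control and 1.11% and 1.51% in ACD, with medians of 1.31% and 1.29%. In vascular smooth muscle the quartiles were 2.19% and 2.91% in control and 2.65% and 3.68% in ACD, so that the middle parts of both distributions overlapped in each of these classes.

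The question of the design is how ACD skin differs from healthy skin, and for this module the differences were small and mostly in one direction. Of the 19 classes with at least 10 cells in both libraries, 17 had a higher level in ACD, with log2 ratios of ACD over control from -0.08 to 0.34 and a median of 0.15. The interval lay above 0 in 15 classes, below 0 in 1 and across 0 in 3. Over all kept cells the level was 14672 in control and 16967 in ACD, a log2 ratio of 0.21 that also holds the different mix of classes. Fibroblasts, which had a low level, were 5104 control and 2683 ACD cells, and cartilage cells 2402 and 1924.

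Vascular smooth muscle cells, the contractile cells of vessel walls, had the largest difference of these 19 classes. Their module level was 25365 in 286 control cells and 32193 in 203 ACD cells, a log2 ratio of 0.34 (0.33 to 0.36). The class was deeper in ACD, with a median of 10640 UMIs against 5325, and the ratio was 0.17 (0.07 to 0.27) in cells of 5000 UMIs or fewer, 0.29 (0.27 to 0.32) from there to 10000 and 0.53 (0.49 to 0.57) above. The ACD level was thus higher at each depth, but by an amount that depended on depth, and the lowest of these ACD groups held 9 cells. Red blood cell markers, 4 genes, had a summed level of 81.7 in control and 5808 in ACD in this class and of 90.8 and 6311 in endothelial cells, with 1 of the 4 at 0 in control and none in ACD, and their part in the results of both classes was not tested.

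Fibroblasts, the matrix-producing cells of the dermis, had 13644 in 5104 control cells and 15438 in 2683 ACD cells, a log2 ratio of 0.18 (0.17 to 0.18). Within the 3 ranges of depth the ratios were 0.19, 0.16 and 0.21, close to the value over all fibroblasts. The gate pools fibroblast types, which the study sorted into sub-clusters, and the part of their mix in the fibroblast values was not tested. Endothelial cells had 15178 and 18043, a ratio of 0.25 (0.22 to 0.28), with 0.35, 0.24 and 0.25 within the ranges of depth. DETC, which live in the epidermis, had 14399 in 76 cells and 17671 in 89, a ratio of 0.30 (0.24 to 0.35). Within the ranges of depth it was smaller, 0.19 (0.12 to 0.27), 0.23 (0.10 to 0.36) and 0.11 (-0.03 to 0.26), the last with 2 control cells. Langerhans cells, the dendritic cells of the epidermis, had 14691 in 38 cells and 18091 in 32, a ratio of 0.30 (0.25 to 0.35), and they were deeper in ACD, with 0.18 and 0.27 in the upper 2 ranges of depth. Marker lists of other classes had different levels in the Langerhans gate of each library. Per 1000000 UMIs, fibroblast markers had 1349 in control and 265 in ACD, pericyte markers 167 and 4.20, dendritic cell markers 179 and 1041 and keratinocyte markers 20.5 and 631. Their part in the ratio was not tested, nor whether the dendritic cell transcripts were the Langerhans cells' own.

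Cartilage cells of the ear had nearly the same level in both libraries. It was 13203 in 2402 control cells and 13297 in 1924 ACD cells, a log2 ratio of 0.01 (0.00 to 0.02), and within the 3 ranges of depth it was 0.07, -0.01 and 0.02. Keratinocytes had 24891 and 26122 (0.07), pericytes 18901 and 21179 (0.16, but -0.12 with a stricter gate), melanocytes 18792 and 20417 (0.12), Schwann and other glia 17203 and 18726 (0.12) and muscle satellite cells 17275 and 18008 (0.06, with an interval of -0.00 to 0.12).

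**Figure D2:**
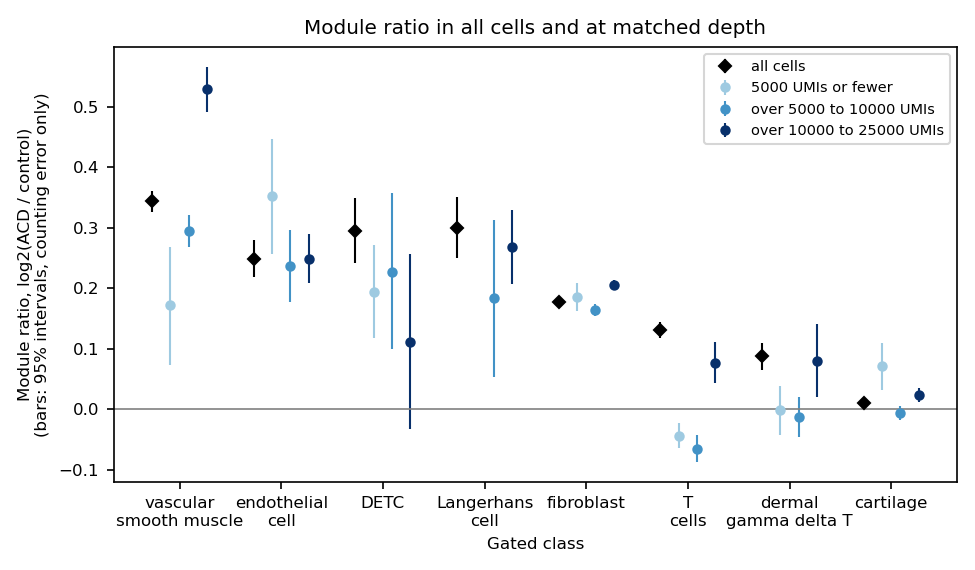
Log2 ratio of the module level, ACD over control, in 8 classes over all cells (black) and within 3 ranges of UMIs per cell (blue), with 95% intervals for counting error. Vascular smooth muscle, endothelial cells and fibroblasts lie above 0 at each depth, while T cells and dermal gamma delta T cells lie above 0 only over all cells and above 10000 UMIs.

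T cells as a whole had a level of 19176 in 614 control cells and 21004 in 2629 ACD cells, a log2 ratio of 0.13 (0.12 to 0.14). The mix of subsets differed between the libraries. With each subset given its share of the ACD UMIs in both libraries, the log2 ratio was 0.09. This difference in mix also enters the values below for T cells as a whole. The pooled ratio did not hold at each depth. It was -0.04 (-0.06 to -0.02) in cells of 5000 UMIs or fewer, -0.06 (-0.09 to -0.04) from there to 10000 UMIs and 0.08 (0.04 to 0.11) above. The module's level climbed with depth within T cells of either library, from 17173 to 23028 in control and from 16664 to 24298 in ACD between the lowest and the highest range, and the median depth was 3712 UMIs in control and 5701 in ACD.

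Over cells of all depths, the T cell subsets differed in the sign of the ratio. CD8 T cells had 19747 in 11 control cells and 22721 in 667 ACD cells, a log2 ratio of 0.20 (0.12 to 0.29), but -0.07 and -0.09 in the lower 2 ranges of depth. CD4 T cells had 21555 in 36 cells and 20410 in 606, a ratio of -0.08 (-0.12 to -0.04). Treg had 17550 in 16 cells and 20048 in 305 (0.19, and -0.02 at 5000 UMIs or fewer). Dermal gamma delta T cells had 20001 in 213 cells and 21255 in 456 (0.09, but -0.00 and -0.01 in the lower 2 ranges of depth). The remaining T cells had 19242 in 262 cells and 19484 in 506 (0.02, interval -0.00 to 0.04). The control CD4, CD8 and Treg gates were small, and whether the subsets differ from each other was not tested.

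Cells with transcripts of the cell cycle had the higher level in CD4, CD8, regulatory, dermal gamma delta and remaining T cells of both libraries. DETC were not examined for this, and control held 1 such CD8 T cell and 2 such Treg. Cells with at least 3 of 8 cell cycle genes were 7.33% of control and 16.7% of ACD T cells. Their level was 24494 in control and 24677 in ACD, against 18140 and 19423 in the other T cells, and their median depth was 9373 and 11895 UMIs against 3581 and 5174. Among ACD CD8 T cells the level was 25862 in 176 such cells and 20414 in 491 others, a log2 difference of 0.34. Without the cycling cells, the ratio of ACD over control was 0.10 in T cells, 0.10 in CD8 T cells and 0.02 (-0.04 to 0.08) in CD4 T cells, where 10 of the 36 control cells had been cycling. In fibroblasts, which were almost all non-cycling, leaving such cells out gave 0.18. ACD fibroblasts with a UMI of Cxcl9, a chemokine induced by interferon gamma, had a level of 15719 in 453 cells against 15358 in the other 2230, a log2 difference of 0.03.

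The pooled myeloid cells had a lower level in ACD although each of their classes had a higher one. Over all myeloid cells the level was 16833 in 125 control cells and 16019 in 481 ACD cells, a log2 ratio of -0.07 (-0.10 to -0.04). Mononuclear phagocytes had 19786 in 26 cells and 22036 in 86 (0.16), mast cells 22675 in 52 and 25085 in 66 (0.15), and basophils, Langerhans cells and neutrophils were also higher in ACD. Basophils and neutrophils, the classes with the lowest levels, were 6 and 3 of the 125 control cells and 234 and 63 of the 481 ACD cells. With each class given its share of the ACD UMIs in both libraries, the log2 ratio was 0.22. Both directions depended on the scaling, since median-of-ratios size factors gave 0.04 for the pooled cells and -0.01 for mononuclear phagocytes. In mast cells such factors move log2 ratios by -0.19, which is more than their ratio of 0.15. The control level of basophils and neutrophils in the calculation with ACD shares rests on those few cells.

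NK/ILC1 cells were 3 in control and 431 in ACD. The module had 166 UMIs in control, a level of 15079 (12872 to 17555), and 16664 in ACD, so that the ratio of 0.14 had an interval of -0.08 to 0.37. By the naming rule the members with the highest ratios were Ndufb11, Ndufa13 and Ndufb5, accessory subunits of complex I, with 0 control UMIs each and 578, 493 and 364 in ACD. Their ACD levels of 264, 225 and 166 lay below the level of 273 that 3 control UMIs would give. The lowest were Ndufv1, Ndufs4 and Ndufs7, with 2 control UMIs each. No fold is therefore given for a member, and none could be told from counting error at this depth.

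By role, the higher level in fibroblasts was shared by all complexes. The log2 ratio was 0.20 for accessory complex I subunits (3718 and 4271), 0.20 for complex III (1301 and 1493), 0.20 for complex IV (3769 and 4318) and 0.21 for complex V (3815 and 4421). The 7 core subunits of complex I, which carry its flavin and iron-sulfur clusters, had 0.10 (597 and 642), with an interval of 0.08 to 0.13. In vascular smooth muscle the values were 0.28 for core and 0.33 for accessory complex I subunits, 0.44 for complex III, 0.32 for complex IV and 0.38 for complex V.

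The core of complex I stood lowest of the complexes in the pooled T cells and in cartilage as well. In the pooled T cells its level was 644 in control and 633 in ACD, a log2 ratio of -0.03 (-0.10 to 0.05). The ratio was 0.07 for accessory complex I subunits, 0.18 for complex III, 0.11 for complex IV and 0.20 for complex V. By subset, the core was lowest in CD4 T cells (-0.277), Treg (-0.0613), dermal gamma delta T cells (-0.00518) and the remaining T cells (-0.196). It was highest in CD8 T cells (0.573) and DETC (0.428), from 25 and 126 control UMIs. In cartilage the core's level was 560 and 535, a ratio of -0.07 (-0.10 to -0.03), against 0.00 to 0.03 for accessory subunits and the other complexes. In all myeloid cells it was 611 and 465, a ratio of -0.39 (-0.56 to -0.22) over a different mix of classes. Within them it was -0.16 (-0.42 to 0.10) in mononuclear phagocytes, 0.13 (-0.17 to 0.44) in Langerhans cells and -0.67 (-1.17 to -0.17) in mast cells, and basophils had 3 control UMIs. 

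Member by member, a gene with at least 100 UMIs over both libraries of a class was counted as higher where its ACD level was more than 25% above the control and as lower where it was more than 20% below. For these counts and for the log2 ratios of single members that follow, 10 UMIs per 1000000 were added to both levels, which shrinks the ratios of low genes. In fibroblasts 83 members were measured, of which 12 were higher and 1 was lower, and 78 had a ratio above 0. Of all 12057 genes measured in fibroblasts, 4.9% were higher and 4.43% lower. The median log2 ratio of the members was 0.19, against -0.01 over all genes. In cartilage 83 members were measured, none was higher and 1 was lower, where 2.53% of genes were higher and 1.28% lower, and the members' median was 0.01 against -0.02 over all genes. None of the 7 core genes of complex I was counted in T cells, fibroblasts or cartilage, while 3 of 6 measured were lower in all myeloid cells and 3 of 7 higher in vascular smooth muscle.

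In T cells 80 members were measured, 11 were higher and 1 was lower, while 9.81% of all genes were higher and 21.4% lower. The members' median was 0.12 and that of all genes -0.08. Scaling by median-of-ratios size factors, which set the typical gene equal, moved the log2 ratios up by 0.12 in T cells and by 0.11 in myeloid cells. It gave 23 members higher and none lower in T cells. All genes were not counted again with such factors, so no share stands beside this count or the myeloid count with that scaling. In all myeloid cells 70 members were measured, 1 was higher and 13 were lower, beside 20.1% of genes higher and 30% lower. With median-of-ratios scaling 7 myeloid members were higher and 5 lower, so the direction of the myeloid counts depended on the scaling. It also depended on the pooling. Within classes, 21 members were higher and 3 lower in mononuclear phagocytes, 29 and 2 in Langerhans cells, 13 and 4 in basophils and 5 and 0 in mast cells, of 63, 47, 30 and 17 measured. Of all genes measured, 481 were higher and 274 lower of 1323 in mononuclear phagocytes and 267 and 185 of 1046 in Langerhans cells. In basophils they were 398 and 329 of 1080 and in mast cells 110 and 58 of 281. Genes at large were thus also more often higher than lower in each of these classes. In vascular smooth muscle, added to the comparisons after its module level was seen, 49 of 76 measured members were higher and none lower, beside 13.9% of genes higher and 24.5% lower. The members' median there was 0.38, against -0.07 over all genes.

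**Figure D3:**
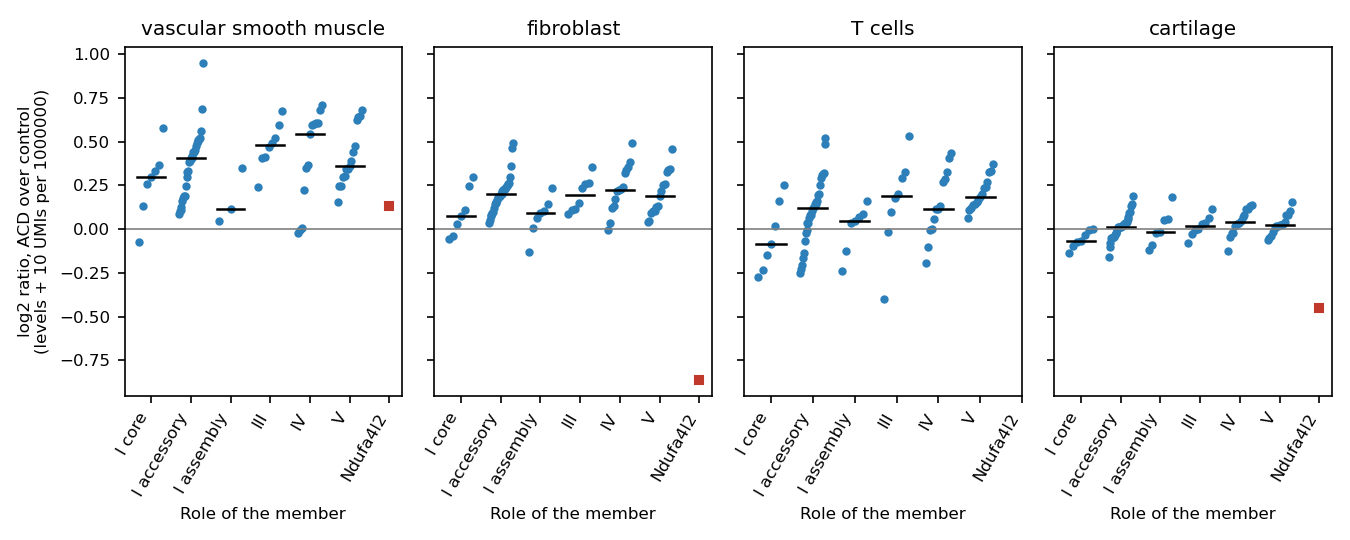
Log2 ratio of ACD over control for each measured member, grouped by role, in 4 classes. Points are genes, black lines are the medians of a role, and the red square is Ndufa4l2, which lies at -0.86 in fibroblasts and at -0.45 in cartilage, below the other members of those classes.

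In fibroblasts the 3 highest members were Ndufc2, an accessory subunit of complex I, Cox6b1, a complex IV subunit on the side of cytochrome c, and Ndufa3, another accessory subunit of complex I. Ndufc2 had 3214 UMIs in control and 3248 in ACD, which are levels of 77.5 and 113 and a log2 ratio of 0.49. Cox6b1 had 7621 and 7526 UMIs, levels of 184 and 262 and the same ratio of 0.49, and Ndufa3 had levels of 50.5 and 73.3 and a ratio of 0.46. The 3 lowest were Ndufa4l2, the assembly factor Ndufaf4 with levels of 19.7 and 17.1 (-0.13) and the core subunit Ndufs7 with 124 and 119 (-0.06).

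The same 3 members led in vascular smooth muscle. Ndufa3 had 90 UMIs in control and 250 in ACD, levels of 52.5 and 111 and a log2 ratio of 0.95. Cox6b1 had levels of 328 and 544 (0.71) and Ndufc2 of 120 and 199 (0.69). At the other end, Ndufv1, the core subunit that binds NADH, had 175 and 166 (-0.07), and both isoforms of complex IV subunit 4 were nearly level: Cox4i1 had 1728 and 1699 (-0.02), Cox4i2 371 and 370 (-0.00).

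In T cells the highest members were Uqcrfs1, Ndufs4 and Ndufa3. Uqcrfs1, the Rieske iron-sulfur protein of complex III, had 409 UMIs in control and 4080 in ACD, levels of 152 and 223 and a log2 ratio of 0.53. Ndufs4, an accessory subunit of complex I whose loss causes Leigh-like disease in mice, had levels of 50.02 and 76.0 (0.52) and Ndufa3 of 79.7 and 116 (0.49). The lowest were Uqcr11, a small complex III subunit, with levels of 218 and 163 (-0.40), Ndufv1 with 95.6 and 77.5 (-0.27) and Ndufa12, an accessory subunit, with 144 and 120 (-0.25).

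In all myeloid cells the highest were Ndufa3 with levels of 64.7 and 97.8 (0.53), Uqcrh with 516 and 637 (0.30) and Atp5b, the catalytic beta subunit of complex V, with 304 and 372 (0.28). The lowest were Ndufv2, a core subunit with 136 and 86.4 (-0.60), Ndufb11 with 309 and 212 (-0.53) and Ndufa5 with 77.6 and 51.9 (-0.50), the last from 48 control and 131 ACD UMIs. In cartilage the highest were Ndufa3 with 35.8 and 42.2 (0.19), the assembly factor Ndufaf1 with 6.76 and 9.01 (0.18) and Atp5j2, a membrane subunit of complex V, with 168 and 188 (0.15). Next to Ndufa4l2 at the low end was Ndufb9, an accessory subunit, with 264 and 235 (-0.16). Ndufa3 was thus among the 3 highest members in T cells, myeloid cells, fibroblasts, cartilage and vascular smooth muscle alike, all against the same pair of libraries.

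Cox4i1, the member with the most UMIs, did not share the direction of most members. It had a ratio above 0 in 3 of the 19 classes with at least 10 cells in both libraries, with a median log2 ratio of -0.11. Its level was 1426 in control and 1246 in ACD T cells (-0.19), 1021 and 1019 in fibroblasts (-0.00), 934 and 856 in cartilage (-0.12) and 1809 and 1688 in keratinocytes (-0.10). Some of its partners in complex IV lay on the other side in most classes. Cox8a had a ratio above 0 in 18 of 19 classes, with 761 and 918 in T cells (0.27) and 543 and 635 in fibroblasts (0.22). Cox7c had a ratio above 0 in all 18 classes where it was measured, with a median of 0.31, and Cox5b in all 17, with a median of 0.34. Others were more mixed, as Cox7a2l with 11 of 18 classes above 0 (median 0.05) and Ndufa4 with 11 of 17 (0.09). The complex V members Atp5g2 and Atp5l had ratios above 0 in 15 of 19 and 17 of 18 classes, and Uqcrh in 16 of 18.

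Cox5a, the partner subunit of Cox5b, had a larger ratio over all cells than within the larger classes named here. Over all kept cells its level was 166 in control and 280 in ACD, a log2 ratio without added counts of 0.75. On that scale it was 137 and 162 within fibroblasts (0.24), 127 and 138 within cartilage (0.12), 448 and 597 within T cells (0.41) and 356 and 525 within vascular smooth muscle (0.56). With added counts, its ratio ran from -0.49 to 0.79 over the 17 classes where it was measured. The part of the mix of cells in the value over all cells was not tested.

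The paralogs of complex IV had the sharpest patterns by class. Pericytes, the mural cells of small vessels, used Cox4i2 and Ndufa4l2. Cox4i2 (chromosome 2, 152754173 to 152765037), the isoform of subunit 4 known from lung and from low oxygen, had a level of 1241 in 224 control and 1312 in 93 ACD pericytes, beside 1067 and 1213 for Cox4i1. Cox4i2 was 53.8% (51.7 to 55.8) of the pair's UMIs in control and 52.0% (49.8 to 54.2) in ACD. In vascular smooth muscle it was 17.7% and 17.9%, in cartilage 14.7% (14.2 to 15.1) and 16.5% (15.95 to 17.0), in fibroblasts 1.58% and 1.80% and in T cells 0.440% and 0.202%. Cartilage cells, which lie in a tissue without vessels, had a Cox4i2 level of 161 in control and 169 in ACD, against 16.4 and 18.7 in fibroblasts.

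In pericytes, Ndufa4l2 held nearly all UMIs of its pair with Ndufa4. Ndufa4 (chromosome 6, 11900292 to 11907497), a subunit of complex IV once taken for one of complex I, had 28 UMIs in control pericytes and 30 in ACD ones, levels of 27.4 and 37.5. Ndufa4l2 (chromosome 10, 127514967 to 127517154), a paralog induced by hypoxia that replaces it, had 1534 and 1019 UMIs, levels of 1499 and 1275. Ndufa4l2 was 98.2% (97.4 to 98.8) of the pair's UMIs in control and 97.1% (95.9 to 98.1) in ACD pericytes. In vascular smooth muscle it was 76.5% and 69.8%, in cartilage 8.39% and 4.54%, in keratinocytes 6.21% and 11.3% and in T cells 1.96% and 0.839%.

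T cells, which should lack both paralogs, serve here as a background. Whether their few UMIs came from free RNA or from doublets was not tested. Their control Ndufa4l2 level was uneven, with 2.84 in the remaining T cells and 28.4 in DETC, from 3 and 8 UMIs. After thinning to 2000 UMIs per cell, Ndufa4l2 was detected among 218 control pericytes in 92.2% and among 93 ACD pericytes in 86.0%, but in only 1.02% of 587 control T cells and 0.347% of 2590 ACD ones, which is taken as background. Cox4i2 was detected in 79.8% and 84.9% of pericytes, 21.3% and 23.2% of cartilage cells and 0.341% and 0.463% of T cells. Without thinning the T cell shares were 2.12% and 1.41% for Ndufa4l2 and 1.14% and 1.14% for Cox4i2, at median depths of 3712 and 5701 UMIs.

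**Figure D4:**
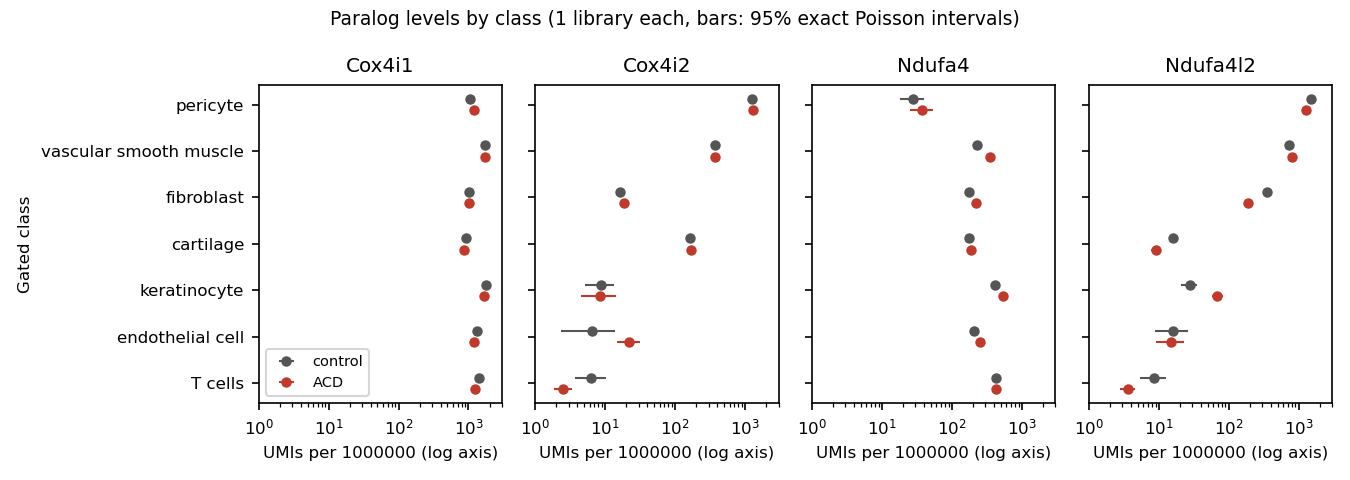
Levels of the subunit 4 isoforms Cox4i1 and Cox4i2 and of Ndufa4 and its paralog Ndufa4l2, in UMIs per 1000000 on a log axis, in 7 classes of the control (grey) and ACD (red) library with exact 95% Poisson intervals. In pericytes Cox4i2 lies close to Cox4i1 and Ndufa4l2 far above Ndufa4, and in fibroblasts Ndufa4l2 is lower in ACD.

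Ndufa4l2 in fibroblasts had the largest difference of any member measured in that class. It had 14417 UMIs in 5104 control cells and 5359 in 2683 ACD cells, levels of 348 (342 to 353) and 187 (182 to 192) and a log2 ratio without a pseudocount of -0.90 (-0.94 to -0.85), against 0.34 (0.29 to 0.39) for Ndufa4, whose levels were 174 and 220. Its share of the pair was 66.6% (66.0 to 67.3) in control and 45.9% (45.0 to 46.8) in ACD. After thinning, 38.2% of control and 23.7% of ACD fibroblasts held a UMI of it. Within the ranges of depth the log2 ratios were -0.85, -0.71 and -1.08. The part of the mix of fibroblast types in this difference was not tested.

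The pericyte marker list was also lower in ACD in these cells, with a summed level of 52.3 in control and 30.1 in ACD fibroblasts and none of its 5 markers at 0 in either library. In the 4269 control and 2299 ACD fibroblasts with no UMI of those markers the ratio of Ndufa4l2 was -0.84 (-0.89 to -0.79), against -0.90 in all. In pericytes themselves the ratio was -0.23 (-0.35 to -0.12), in vascular smooth muscle 0.13 (0.03 to 0.24) and in cartilage -0.82 (-1.10 to -0.56), the last from 330 and 178 UMIs. Cartilage levels were low, 16.04 and 9.06, with a UMI in 2.88% and 1.51% of thinned cells, and in T cells, taken as background, the level was 8.52 and 3.61, a ratio of -1.24 (-1.94 to -0.49), so no difference in cartilage is read from these values. In keratinocytes it was 1.33 (0.87 to 1.80), from 61 control and 116 ACD UMIs. Over all kept cells Ndufa4l2 had 208 and 102, a log2 ratio of -1.03 that also holds the different mix of classes.

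Other paralogs were rare. Cox6a2, the heart and muscle isoform of subunit 6A, had 54 UMIs in control and 309 in ACD. Of the ACD UMIs, 290 came from 40 cells with at least 2 each, and 35 of these cells also held a UMI of Siglech, a marker of plasmacytoid dendritic cells, which occurred in 37 of the other 11625 cells. Of the 11 control cells with at least 2 UMIs of Cox6a2 none held Siglech, which occurred in 7 of the other 12202 cells. Siglech was looked at after the Cox6a2 values were seen, and 25 of the 40 cells were ungated. Cox7a1 and Cox8b, further muscle isoforms, had 134 and 53 UMIs in control and 197 and 56 in ACD, and Cox6b2, known from testis, had 881 and 974, levels of 9.56 and 9.77.

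AA467197, a Ndufa4 paralog outside the name pattern, was found in other cells than Ndufa4l2. Its level was 28.7 in control and 35.8 in ACD CD4 T cells, from 6 and 157 UMIs, and 34.0 in ACD CD8 T cells, where the control had 2 UMIs. It was 142 in 63 ACD neutrophils, from 19 UMIs, and 9.62 and 36.3 in control and ACD endothelial cells, from 9 and 48 UMIs. Pericytes held 0 UMIs of it in both libraries, which allows a level of up to 2.93 in control and 3.75 in ACD.

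The subunits that mitochondrial DNA encodes did not follow the nuclear ones in each class. Their 13 genes had a summed level of 22085 in control and 24902 in ACD fibroblasts, a log2 ratio of 0.17 beside 0.18 for the nuclear module. In cartilage the ratio was 0.06 beside 0.01. In T cells it was -0.16, with 29825 and 26744, beside 0.13 for the nuclear module, and in vascular smooth muscle -0.08, with 43525 and 41300, beside 0.34. In all myeloid cells it was -0.46 beside -0.07. By the same rule of size, 4 of the 13 were lower in T cells, 1 in vascular smooth muscle and 9 of 11 measured in myeloid cells, and none was higher. For genes lower, the share over all genes was 21.4%, 24.5% and 30% in these. The pools hid subsets that went the other way, with 0.36 (0.28 to 0.45) in CD8 T cells, where 8 of 12 measured were higher and none lower, 0.20 (0.15 to 0.24) in CD4 T cells and 0.24 (0.03 to 0.46) in basophils. Of all 5288 genes measured in CD8 T cells, which had 11 control cells, 1770 were higher and 1807 lower. Treg had -0.29, dermal gamma delta T cells -0.24 and mononuclear phagocytes -0.24. The part of cell quality and of the 8% limit on mitochondrial UMIs in these values was not tested.

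The subunits that the name patterns miss, which include the succinate dehydrogenase genes of complex II and cytochrome c, had ratios of 0.07 in T cells, 0.24 in fibroblasts, 0.06 in cartilage, -0.17 in all myeloid cells and 0.33 in vascular smooth muscle. Cycs, cytochrome c, had levels of 148 and 208 in T cells (0.49). Sdha, the flavoprotein of complex II, had 59.7 and 43.8 there (-0.44). Assembly factors outside the patterns had 0.13 in T cells, 0.22 in fibroblasts and 0.05 in cartilage, and 1 of 24 measured was higher in fibroblasts, beside 4.9% of all genes.

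Lists of neighbouring pathways give the module its scale. The 77 genes of the mitochondrial ribosome, which translates the mitochondrial subunits, had a summed log2 ratio of 0.23 in fibroblasts, where 10 of 76 measured were higher (4.9% of all genes) and none lower, 0.41 in vascular smooth muscle, where 33 of 57 were higher (13.9% of all genes) and none lower, 0.09 in T cells and 0.02 in cartilage. The 13 citric acid cycle genes had 0.11 in fibroblasts, 0.18 in vascular smooth muscle and 0.00 in T cells. The 9 regulators of mitochondrial biogenesis were sparse. Their summed levels were 102 and 91.0 in fibroblasts (-0.16), and none of the 9 was counted there.

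Glycolysis had larger ratios than the module in some immune classes and smaller ones in others. The 16 glycolytic genes had a summed level of 4719 in control and 6474 in ACD T cells, a log2 ratio of 0.46 beside 0.13 for the respiratory module, with 7 higher and 1 lower, where 9.81% of all genes were higher and 21.4% lower. It was 0.45 in CD8 T cells and 0.45 in Treg, beside 0.20 and 0.19 for the module, but 0.14 in DETC beside 0.30. In T cells as a whole, Aldoa, which encodes aldolase, had 417 and 690 (0.73) and Ldha, lactate dehydrogenase A, 468 and 654 (0.48). Hk2, the inducible hexokinase, had 157 and 53.3 (-1.56) there. In all myeloid cells the list had 0.59, with 10 of 13 measured higher and 1 lower, where 20.1% of all genes were higher and 30% lower. It was 0.87 in mononuclear phagocytes beside 0.16 for the module, and 0.05 in basophils beside 0.26. In fibroblasts it had 0.26, in cartilage 0.00 and in vascular smooth muscle 0.23, where the respiratory module had 0.18, 0.01 and 0.34.

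**Figure D5:**
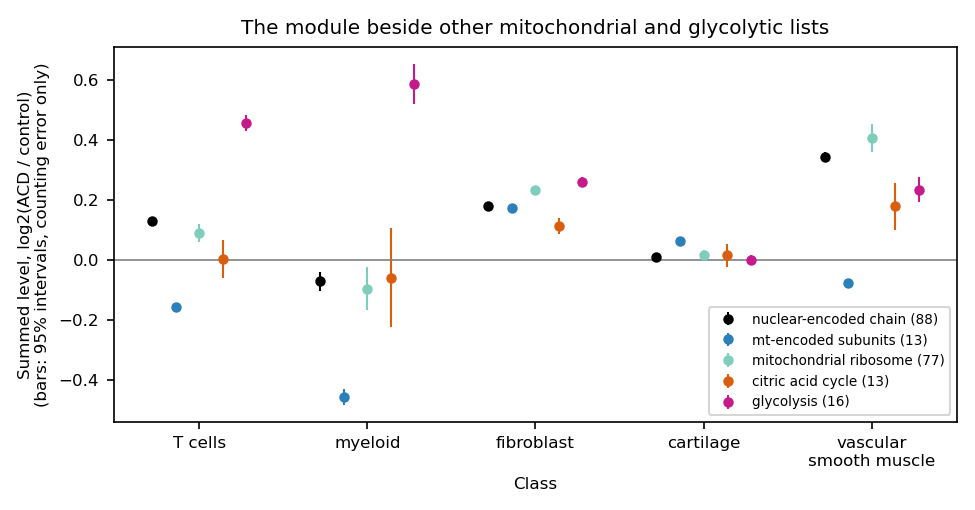
Log2 ratio of ACD over control for the summed level of the 88 nuclear respiratory chain genes and of 4 other lists in 5 classes, with 95% intervals for counting error. In fibroblasts and cartilage the nuclear and the mitochondrially encoded subunits lie close together, while in T cells, myeloid cells and vascular smooth muscle the mitochondrially encoded subunits lie below the nuclear ones.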

How the data were processed

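Single-cell libraries of control and ACD ear skin were made with the 10x 3′ kit (version 2 per the labels), and the authors ran Cell Ranger (3.0.2 in the methods, 3.1.0 in the submitters' processing notes) against mm10-1.2.0. The deposited values are the authors' unnormalized UMI counts, and the files hold the default filtered barcodes of each library. The study used fewer cells from both libraries than the limits applied here left, and the UMI limit, worded in its methods as a minimum, was read as a maximum.

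The name rule for the members and the lists were proposed with earlier results of these data known, and the gate was set with the files in hand. Each cell was scored for 17 lineage lists by the mean of its best markers, at most 4, each as ln(1 + UMIs per 10000) scaled to its 95th percentile. The top class needed 3 markers, a score of at least 0.25 and 1.25 times the second score, and T cells were then split by subset markers. Doublets were not removed, apart from an alternative with Scrublet (scanpy 1.11.5). Near-identical pseudogenes can lower a member's count, since reads that match several places are dropped.

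UMIs were summed per class and library in Python 3.11.15 with numpy 2.4.6, scipy 1.17.1 and pandas 2.3.3. Levels have exact Poisson and ratios exact conditional binomial intervals. With 1 library per group there is no test, and a fold of 1.25 with at least 100 UMIs stands in for a call. The scripts were tested on simulated data. Genes named are the 5 members with the most UMIs, the isoform pairs, the 3 highest and 3 lowest members per class, and the complex I core as a group. One gene that this rule names in cartilage is not reported here. Vascular smooth muscle, the remaining member examples, Cox6a2 with Siglech and the genes named within the other lists were added after their values were seen. Positions come from GENCODE M21 and promoter windows from RefSeq, which lacked, among others, Cox4i1, Cox6c, Atp5a1, Ndufb9, Uqcrq, Ndufa2, Atp5f1, Uqcrb, Ndufa4l2, Uqcrc2, Cox4i2, Ndufs1, Atp5sl, Ndufaf6, Atp5s, Cox6a2 and Cox8c.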

Additional observations from a re-analysis of the deposited data

Results flagged for a closer look

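CD4 T cells and the pooled myeloid cells had a module level below the control's, with log2 ratios of -0.0787 and -0.0715, while fibroblasts had 0.18. Each of these is 1 library against 1, and the difference between the classes was not tested. In CD4 T cells the ratio rested on 36 control cells and was 0.02 without cycling cells. In the myeloid cells the ratio was 0.22 at a fixed mix of classes.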

How the results depend on the processing

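No paired analysis was possible because each group is 1 library, and no replicate could be left out. Values are log2 ratios of ACD over control unless named as counts, none was tested, and where a value differed from the one reported the cause was not tested. Splits by depth and leaving out cycling cells were chosen after seeing the data. Fibroblasts, endothelial cells, DETC, Langerhans cells and vascular smooth muscle kept their direction in every alternative that gave a value. With mitochondrial and ribosomal protein genes left out of the total, T cells had 0.184 and fibroblasts 0.218, and the highest class stood 2.34-fold above the lowest in control and 2.40-fold in ACD. With median-of-ratios scaling T cells had 0.255, NK/ILC1 cells 0.601, myeloid cells 0.0370, fibroblasts 0.189, cartilage 0.0452, other classes 0.205 and mononuclear phagocytes -0.00541. As a mean over cells the values were 0.0925 in T cells, -0.410 in myeloid cells, 0.172 in fibroblasts, 0.00145 in cartilage and 0.141 in other classes. In cells thinned to 2000 UMIs they were 0.107 in T cells, -0.243 in myeloid cells, 0.171 in fibroblasts and 0.12 in other classes, and the control span was 1.94-fold. With all deposited barcodes they were 0.190 in T cells, -0.0184 in myeloid cells, 0.202 in fibroblasts, 0.0333 in cartilage and 0.263 in other classes. A stricter gate gave -0.208 in myeloid cells, 0.230 in fibroblasts, -0.0334 in cartilage, 0.0468 in other classes and -0.119 in pericytes. Structural subunits alone gave 0.198 in fibroblasts. At 5000 UMIs or fewer the values were -0.0434 in T cells, 0.186 in fibroblasts, 0.0711 in cartilage, -0.0361 in other classes, -0.0673 in CD8 T cells, -0.0223 in Treg and -0.00107 in dermal gamma delta T cells. From there to 10000 they were -0.0648 in T cells, 0.165 in fibroblasts, -0.00579 in cartilage, 0.110 in other classes, -0.0854 in CD8 T cells and -0.0119 in dermal gamma delta T cells. Above 10000 they were 0.0774 in T cells, 0.206 in fibroblasts and 0.0239 in cartilage. Without cycling cells T cells had 0.0986, CD4 T cells 0.0194 and keratinocytes -0.00293. At a fold of 1.5 the counts of members were 0 higher and 0 lower in T cells, 0 higher and 1 lower in myeloid cells, 0 higher in fibroblasts, 0 lower in cartilage and 14 higher in vascular smooth muscle. At a minimum of 50 or of 20 UMIs they were 3 lower in T cells and 2 higher in myeloid cells. Median-of-ratios scaling gave 23 higher and 0 lower in T cells and 7 higher and 5 lower in myeloid cells, and a pseudocount of 1 gave 2 higher in cartilage. No share over all genes was computed for these alternative counts of members. Depth limits the NK/ILC1, basophil and neutrophil classes, which had under 10 control cells.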
